A study of Mus musculus with 65 samples.

Results

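Integrins, selectins and the ligands they bind were described as a group of 32 mouse genes. The members are a list of gene symbols, matched by name: 15 integrin alpha chains (Itga1, Itga3 to Itga11, Itgae, Itgal, Itgam, Itgav and Itgax), 8 integrin beta chains (Itgb1 to Itgb8), 5 integrin ligands (Vcam1, Icam1, Icam2, Fn1 and Vtn), the selectins Selp and Sele, the selectin ligand Selplg and the hyaluronan receptor Cd44. All 32 were found once in each table, among 44485 genes in the table of stem and progenitor cells, 44353 in the table of niche cells and 47526 in the table of niche cells after 5-fluorouracil (5FU).

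RNA was sequenced from cells of mouse femur and tibia that had been sorted by flow cytometry, in 65 libraries of 17 groups with 3 to 6 libraries each. The hematopoietic stem and progenitor cells (HSPCs) came from the LSK gate, which takes cells without lineage markers that carry Sca-1 and c-Kit. Within it, Reserve cells were Flk2-, CD34- and CD49b- (n = 4), Primed cells Flk2-, CD34- and CD49b+ (n = 3), ST cells Flk2- and CD34+ (n = 3) and MPP cells Flk2+ and CD34+ (n = 4). The 5FuReserve cells had the Reserve gate on day 3 after 5FU (n = 3), a drug that kills dividing cells, and the label of the third library writes the last marker as CD49-. CD49b is itself an integrin alpha chain, and its gene Itga2 is not among the members. The niche populations of untreated mice were sorted without CD45, Ter119 and CD31 and with a reporter or antibody signal: Ncad_bone and Ncad_marrow for the Tomato reporter of N-cadherin in bone and in marrow, Col2.3_GFP, Ng2_RFP, Cxcl12_RFP, Nestin_GFP and Pecam_GFP (n = 4 each) and Lepr (n = 6). Macrophages (Mac) were CD45+ and F4/80+ and lacked the Pf4-Cre-driven YFP, CD3, B220 and NK1.1, and the MK group was CD45+ with the Pf4-Cre-driven YFP (n = 4 each). After 5FU, Tomato-positive cells were taken from bone (5Fu_Ncad_bone) and marrow (5Fu_Ncad_marrow, n = 3 each), on a day not stated by the labels. A reporter marks the cells in which its promoter is or, with Cre, has been active, so a group named after a gene can hold several cell types. The labels do not say that replicates came from separate mice, so p-values cover no more than the variation among the sequenced samples, possibly technical.

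Integrins are heterodimers of an alpha and a beta chain that link a cell to matrix proteins or to proteins on other cells. Alpha chains that pair with the beta chain of Itgb1 bind collagens, laminins or fibronectin, those that pair with the beta chain of Itgb2 occur on leukocytes and bind intercellular adhesion molecules, and the alpha chain of Itgav pairs with several beta chains and binds vitronectin. In bone marrow, sinusoidal endothelium shows selectins and vascular cell adhesion molecule to blood cells, which roll on the former and arrest on the latter through the integrin made of the Itga4 and Itgb1 chains, and stromal cells hold stem and progenitor cells through the same pair.

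The promoters of 5 members are shown because their levels set the niche populations apart: Sele, Selp and Icam1 were highest in Pecam_GFP cells, and Itgam and Itgax in Mac and MK cells. Each line holds the 250 bases before the RefSeq start site, 5′ to 3′, with its place on GRCm38.p6 and its strand, and capitals mark matches to GAGGAA or GGGNNTTCC on either strand, letters resembling the sites of PU.1 and of kappaB factors.
Sele, chr1:164047984-164048233 (+): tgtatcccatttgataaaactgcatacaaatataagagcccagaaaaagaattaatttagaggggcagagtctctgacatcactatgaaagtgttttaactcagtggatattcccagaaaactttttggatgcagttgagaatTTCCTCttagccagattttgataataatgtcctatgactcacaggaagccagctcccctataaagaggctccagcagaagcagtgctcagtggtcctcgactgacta
Selp, chr1:164115014-164115263 (+): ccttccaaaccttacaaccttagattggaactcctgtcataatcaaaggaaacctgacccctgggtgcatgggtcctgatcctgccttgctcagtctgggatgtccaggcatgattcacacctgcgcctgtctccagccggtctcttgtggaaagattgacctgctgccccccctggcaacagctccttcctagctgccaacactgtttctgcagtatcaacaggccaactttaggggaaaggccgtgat
Icam1, chr9:21015690-21015939 (+): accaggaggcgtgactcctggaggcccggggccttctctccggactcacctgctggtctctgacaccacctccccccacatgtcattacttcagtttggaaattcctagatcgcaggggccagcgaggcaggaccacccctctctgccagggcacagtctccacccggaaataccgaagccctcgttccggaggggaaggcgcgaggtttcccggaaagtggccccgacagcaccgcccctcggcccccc
Itgam, chr7:128062390-128062639 (+): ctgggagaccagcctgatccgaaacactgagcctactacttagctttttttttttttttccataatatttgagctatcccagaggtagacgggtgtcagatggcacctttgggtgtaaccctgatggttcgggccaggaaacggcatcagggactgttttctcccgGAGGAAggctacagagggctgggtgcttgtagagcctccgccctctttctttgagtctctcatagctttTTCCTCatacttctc
Itgax, chr7:128129300-128129549 (+): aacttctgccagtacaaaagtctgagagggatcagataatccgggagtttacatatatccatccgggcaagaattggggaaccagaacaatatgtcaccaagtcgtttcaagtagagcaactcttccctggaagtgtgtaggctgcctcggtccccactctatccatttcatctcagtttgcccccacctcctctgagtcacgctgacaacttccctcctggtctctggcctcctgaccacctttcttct
The RefSeq table held promoters of 21 of the 32 members, 23 in all. GAGGAA occurred in 9 of these 23, with matches in Itgam and Sele among those shown, and in 23.3% of 32851 promoters of the same length. GGGNNTTCC occurred in 1 of the 23, that of Itgb1, and in 4.98% of all promoters. The windows of Selp, Icam1 and Itgax held neither run of letters. Only these exact letters were searched, so sites of PU.1 or kappaB factors spelled otherwise would be missed in any window.

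The values are FPKM, fragments scaled by transcript length and by the mapped fragments of the library, so levels are comparable between genes per unit of length but absolute depth is unknown. Between 11649 and 14258 genes per library reached 1 FPKM. The median correlation of a library with its own group lay between 0.886 and 0.942. Some pairs were closer, with 0.961 for Reserve replicates 3 and 4, 0.959 for Primed replicates 2 and 3 and 0.959 for Col2.3_GFP replicates 1 and 4. The labels do not say whether such pairs share a source, and leaving out 1 library does not remove both. Of 65 libraries 1, Ncad_marrow replicate 2, was nearer to another group, Nestin_GFP. Its summed pan-leukocyte markers stood at 272 FPKM against 37.3 to 70.8 FPKM in the other Ncad_marrow libraries. The summed megakaryocyte and platelet markers were at 6585 FPKM in Lepr replicate 3 and at 26.4 to 61.7 FPKM in the other 5 Lepr libraries. In MK they were at 36475, 36967, 5792 and 10245 FPKM in replicates 1 to 4, with neutrophil markers at 107136, 83511, 364258 and 309515 FPKM. Neutrophil markers also reached 382542 to 554041 FPKM in Mac, and macrophage and monocyte markers 13272 to 18758 FPKM. No neutrophil marker is among those that the Mac gate excludes, and which cells carried these transcripts was not tested. Pecam_GFP cells had endothelial markers at 1377 to 1875 FPKM, although their label excludes CD31, the product of Pecam1. Exons of 12 of the 32 members, Vcam1, Icam1, Fn1 and Selp among them, share bases with other genes of the GENCODE M21 annotation, and the library kit does not mark strand, so reads of such pairs cannot be told apart. In bulk samples, fewer cells of a type and less RNA per cell cannot be told apart.

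All tested members differed in level among the 10 niche populations of untreated mice. Of the 32 members 30 passed the filter of 1 FPKM in at least 3 of the 42 libraries, and each of the 30 was called by limma's moderated F test at an adjusted p under 0.05, as were 89.0% of all 18972 genes tested. The members below the filter were Itgae, the alpha chain of an E-cadherin receptor of lymphocytes, at most 0.620 FPKM in any niche library, and Itgb6, an epithelial partner of the Itgav chain, at most 1.91 FPKM. Itga3, Itga7, Itgax, Itgb4 and Itgb8 were tested but had a mean under 5 FPKM in every niche population.

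**Figure D1:**
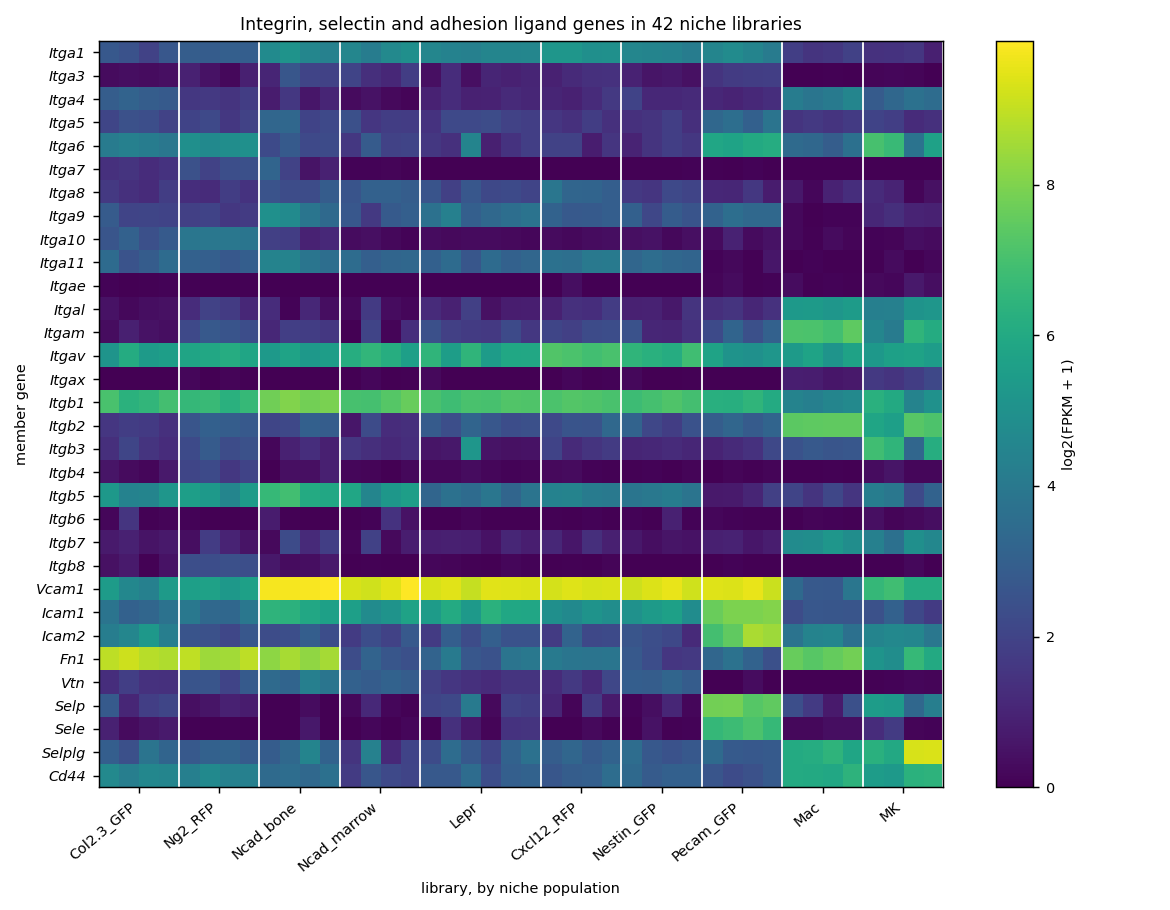
Level of each of the 32 members (rows) in each of the 42 niche libraries (columns, grouped by population) as log2(FPKM + 1) in colour. Vcam1 is bright in 6 populations, Sele only in Pecam_GFP cells, and the leukocyte integrin genes Itgal, Itgam and Itgb2 in Mac and MK, while Itgb3 stands out in Lepr replicate 3.

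Among the immunoglobulin-type ligands, Vcam1 (ENSMUSG00000027962, mm10 chromosome 3, 116109949 to 116129688), which encodes vascular cell adhesion molecule, was the most abundant member in 6 of the 10 populations. It was at 865, 886, 911 and 943 FPKM in Ncad_bone, 637, 578, 701 and 962 FPKM in Ncad_marrow and 692, 664, 768 and 556 FPKM in Pecam_GFP. In Lepr the lowest, median and highest libraries had 520.4, 679 and 716 FPKM, and means in Nestin_GFP and Cxcl12_RFP were 648 ± 87.5 FPKM (SD, n = 4) and 645 ± 28.9 FPKM (SD, n = 4). These 6 populations overlapped with neighbours in the order of means, and every library in them lay above every library of the other 4. MK stood at 95.2, 116, 67.2 and 66.8 FPKM, Ng2_RFP at 47.4, 49.4, 37.7 and 48.1 FPKM, Col2.3_GFP at 42.5, 22.9, 18.8 and 40.8 FPKM and Mac at 9.54, 5.89, 5.72 and 13.9 FPKM. MK lay above Ng2_RFP with no overlap, Ng2_RFP overlapped with Col2.3_GFP, and Mac lay below both.

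Icam1 (ENSMUSG00000037405, chromosome 9, 21015985 to 21028817) and Icam2 (ENSMUSG00000001029, chromosome 11, 106377656 to 106388075), which encode intercellular adhesion molecules bound by integrins with the Itgb2 chain, were highest in Pecam_GFP cells. Icam1 was at 198, 251, 247 and 271 FPKM there, with Ncad_bone next at 85.9, 80.6, 61.3 and 48.7 FPKM and Lepr at 38.6, 57.9 and 79.5 FPKM for its lowest, median and highest libraries. Mac and MK had the lowest means, with 3.94 to 5.48 and 2.22 to 7.50 FPKM. Icam2 was at 124, 181, 397 and 355 FPKM in Pecam_GFP cells, with a wide spread within the group, and Col2.3_GFP followed at 17.2, 22.4, 37.5 and 18.1 FPKM. Icam2 overlapped between Col2.3_GFP, MK (14.1 to 23.9 FPKM) and Mac (11.8 to 21.5 FPKM). Vcam1, in contrast, was not called between Pecam_GFP and Lepr (log2 fold change 0.03 ± 0.20 SE on the log2(FPKM + 1) scale, limma adjusted p = 0.956). Fold changes below are given on the same scale, each ± its standard error.

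**Figure D2:**
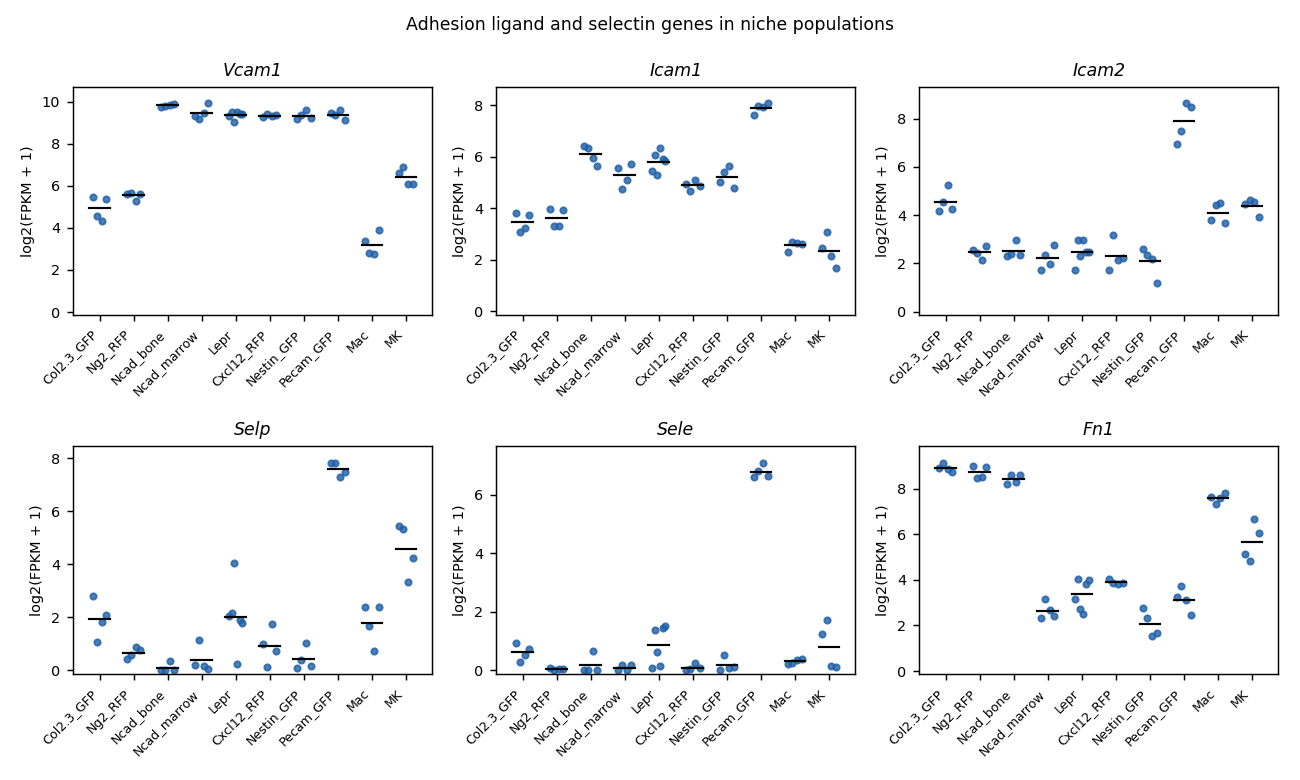
Levels of Vcam1, Icam1, Icam2, Selp, Sele and Fn1 as log2(FPKM + 1) in the 10 niche populations; each point is a library and each bar the mean of the log2 values. Pecam_GFP libraries lie above all others for Icam1, Icam2, Selp and Sele, and Fn1 is high in Col2.3_GFP, Ng2_RFP and Ncad_bone.

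The selectins, which let blood cells roll on endothelium, were concentrated in Pecam_GFP cells. Sele (ENSMUSG00000026582, chromosome 1, 164048234 to 164057677), E-selectin, was at 95.5, 109.6, 136 and 99.4 FPKM in Pecam_GFP and at most 2.26 FPKM in any other niche library. Selp (ENSMUSG00000026580, chromosome 1, 164115264 to 164150026), P-selectin, which platelets also store, was at 224, 228, 155 and 178 FPKM in Pecam_GFP and 43.0, 39.7, 8.97 and 17.8 FPKM in MK. Among the Lepr libraries Selp reached 15.4 FPKM in replicate 3, the library with high megakaryocyte markers, and at most 3.44 FPKM in the others. Pecam_GFP libraries did not overlap with any other group for either selectin.

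Against Lepr cells, 7 of 30 tested members were higher in Pecam_GFP cells, against 19.7% of the 18972 genes tested, and 6 were lower, against 22.0%. By limma with Benjamini-Hochberg adjustment over all tested genes, Sele (log2 fold change 5.92 ± 0.25, adjusted p = 1.32e-20), Selp (5.57 ± 0.45, adjusted p = 7.41e-13), Icam2 (5.40 ± 0.31, adjusted p = 7.35e-17) and Icam1 (2.10 ± 0.23, adjusted p = 1.59e-09) rose. The integrin chains that rose were Itga6 (4.01 ± 0.46), a laminin receptor chain at 58.1, 53.0, 64.5 and 68.7 FPKM, Itga5 (1.44 ± 0.22), the fibronectin receptor chain at 8.81, 10.95, 7.20 and 13.03 FPKM, and Itga3 (0.86 ± 0.21), another laminin receptor chain. The 6 lower members were Itga11 (-2.92 ± 0.18), Itgb5 (-2.48 ± 0.30), Vtn (-1.42 ± 0.18), Itga8 (-1.13 ± 0.22), Itgb1 (-0.80 ± 0.21) and Itgav (-0.72 ± 0.20). The collagen receptor chain Itga11 was at 0.03 to 0.499 FPKM in Pecam_GFP and 5.25 to 10.1 FPKM in Lepr, with no overlap. Without Lepr replicate 3 the counts stayed at 7 and 6, and the fold change was 4.52 for Itga6 and 5.97 for Selp. All comparisons with Lepr share its 6 libraries.

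Of the matrix ligands, Fn1 (ENSMUSG00000026193, chromosome 1, 71585520 to 71653200), which encodes fibronectin, split the stromal populations. It was at 479, 563, 458 and 422 FPKM in Col2.3_GFP, 499.8, 349, 366 and 487 FPKM in Ng2_RFP and 296, 389, 308 and 381 FPKM in Ncad_bone. Mac had 196, 161, 191 and 224 FPKM and MK 33.6, 27.6, 99.2 and 64.3 FPKM. In the other 5 populations every library was at or below 15.5 FPKM, and Nestin_GFP was lowest at 5.87, 4.01, 1.93 and 2.16 FPKM. Vtn, which encodes vitronectin, was low by comparison, with 9.70, 8.20, 18.7 and 13.4 FPKM in Ncad_bone, 7.49, 6.35, 7.66 and 6.63 FPKM in Ncad_marrow and 6.88, 6.52, 8.48 and 6.41 FPKM in Nestin_GFP. It was listed at 0 in all 4 Mac libraries and in 3 of 4 Pecam_GFP libraries.

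Among integrin chains, Itgb1 led the beta chains and Itgav the alpha chains in each stromal population. Itgb1, the beta chain shared by collagen, laminin and fibronectin receptors, was at 215, 263, 224 and 243 FPKM in Ncad_bone, above every other niche library, and at 18.4 to 24.1 FPKM in Mac. It held 85.4% ± 7.49 (SD, n = 6) of the summed FPKM of the 8 beta chains in Lepr, 62.7% ± 2.46 (SD, n = 4) in Ng2_RFP and 86.7% ± 4.21 (SD, n = 4) in Pecam_GFP. Itgav was at 149, 136, 120.4 and 131 FPKM in Cxcl12_RFP, above all other libraries of untreated niche cells, and was the first of the 15 alpha chains in each of the 7 stromal populations, from 33.9% ± 6.61 (SD, n = 4) of the alpha chain sum in Ncad_bone to 64.7% ± 5.9999 (SD, n = 4) in Nestin_GFP. In Pecam_GFP cells the first alpha chain was Itga6, with 40.05% ± 4.88 (SD, n = 4). These shares cover the members alone, so Itga2 and Itga2b, the alpha chain of platelets, are not counted.

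**Figure D3:**
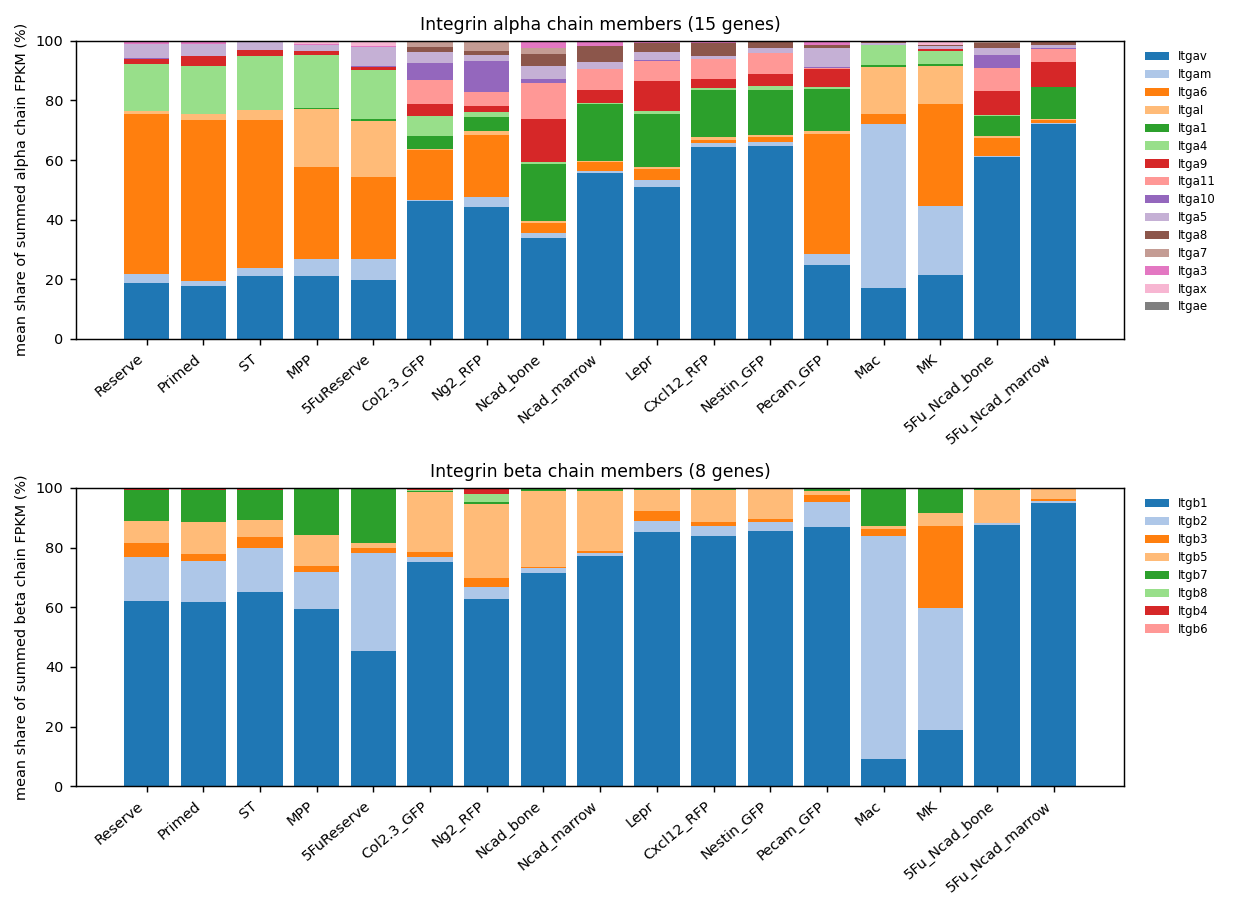
Mean share (%) of each integrin gene in the summed FPKM of the 15 alpha chain members (top) and the 8 beta chain members (bottom), per group, as stacked bars. Itgav and Itgb1 lead in stromal populations, Itga6 and Itgb1 in HSPCs and Pecam_GFP cells, and Itgam and Itgb2 in Mac.

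The beta chains that pair with Itgav differed in place. Itgb5 was at 99.5, 119, 66.3 and 60.9 FPKM in Ncad_bone and at 0.594 to 2.72 FPKM in Pecam_GFP, the highest and lowest means of the populations. Itgb3, which pairs with the platelet alpha chain as well, was at 116, 87.8, 8.73 and 70.4 FPKM in MK, lowest in the replicate with the least megakaryocyte marker, and between 0.142 and 6.10 FPKM in the other populations except Lepr replicate 3, which had 35.6 FPKM. Itgb8 was at 4.23, 4.14, 4.36 and 4.23 FPKM in Ng2_RFP and under 1 FPKM in every other niche library. Itgb4, which pairs with the Itga6 chain, was also highest in Ng2_RFP, at 3.19, 3.71, 2.04 and 2.94 FPKM.

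The collagen receptor chains had 3 different leading populations. Itga1 was at 36.3, 36.4, 29.9 and 30.2 FPKM in Cxcl12_RFP, overlapping with Ncad_bone (19.3 to 33.0 FPKM), and at 1.78 to 2.78 FPKM in Mac. Itga11 was at 20.6, 20.4, 13.5 and 10.9 FPKM in Ncad_bone and 12.1, 11.2, 14.97 and 15.7 FPKM in Cxcl12_RFP, and these overlapped. Itga10, known from cartilage, was at 13.8, 14.3, 14.1 and 13.6 FPKM in Ng2_RFP and 5.13, 7.36, 4.42 and 5.99 FPKM in Col2.3_GFP, and no library of another population exceeded 2.71 FPKM. Of the laminin receptor chains, Itga6 was at 129, 105, 12.5 and 49.9 FPKM in MK, 29.4, 25.1, 27.9 and 30.1 FPKM in Ng2_RFP and 16.3, 19.0, 17.0 and 14.3 FPKM in Col2.3_GFP, and Itga7, known from muscle, at 4.43, 2.90, 4.21 and 4.38 FPKM in Ng2_RFP and 8.04, 2.92, 0.441 and 0.885 FPKM in Ncad_bone. Itga8, which pairs with the Itgb1 chain, was highest in Cxcl12_RFP at 13.9, 8.32, 8.19 and 6.87 FPKM, and Itga9, a receptor chain for tenascin and osteopontin, in Ncad_bone at 30.2, 26.1, 13.4 and 9.38 FPKM.

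Col2.3_GFP cells, marked by an osteoblast promoter fragment, and Ng2_RFP cells, marked by a proteoglycan gene of pericytes and chondrocytes, were each compared with Lepr. In Col2.3_GFP 9 of 30 members were higher, against 28.2% of all tested genes, and 9 lower, against 16.8%. In Ng2_RFP 10 of 30 were higher, against 16.1%, and 7 lower, against 14.1%. Fn1 rose in each, with log2 fold changes of 5.54 ± 0.30 (adjusted p = 1.61e-17) and 5.35 ± 0.30 (adjusted p = 4.61e-17), and its libraries did not overlap with those of Lepr (4.61 to 15.5 FPKM). Vcam1 fell by limma, with -4.43 ± 0.20 in Col2.3_GFP and -3.82 ± 0.20 in Ng2_RFP, and so did Icam1, with -2.34 ± 0.23 and -2.18 ± 0.23. The hyaluronan receptor gene Cd44 was at 24.2, 18.0, 22.8 and 21.6 FPKM in Col2.3_GFP and 18.2, 24.8, 19.7 and 19.0 FPKM in Ng2_RFP, above the Lepr libraries (4.04 to 10.2 FPKM), with fold changes of 1.58 ± 0.20 and 1.501 ± 0.20.

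Integrin chains that rose in both Col2.3_GFP and Ng2_RFP were Itga10 (2.47 and 3.64), Itga6 (2.1996 and 2.92), Itga7 (1.39 and 2.29), Itga4 (1.89 and 0.58) and Itgb5 (1.29 and 1.66). Itgb8 was counted as higher in each (0.32 and 2.28), but it reached 1 FPKM in the Ng2_RFP libraries alone and so passed the filter only through that group, and in Col2.3_GFP it was at 0.053 to 0.663 FPKM. Chains that fell in both were Itga1 (-2.01 and -1.53), Itga9 (-1.38 and -1.82) and Itga8 (-0.75 and -0.82). Col2.3_GFP also had a rise of Icam2 (2.07 ± 0.31) and lower Itgam (-1.40 ± 0.36), Itgb2 (-1.05 ± 0.30), Itga3 (-0.50 ± 0.21) and Itgal (-0.66 ± 0.27). Endothelial markers summed to 52.4 to 67.8 FPKM in Col2.3_GFP, 7.18 to 9.79 FPKM in Ng2_RFP and 11.5 to 118 FPKM in Lepr, and pan-leukocyte markers to 60.4 to 144, 162 to 256 and 151 to 201 FPKM, and the part of these in the values of Icam2, Itgam and Itgb2 was not tested. Ng2_RFP also had higher Itgb4 (1.80 ± 0.12), which likewise passed the filter only through Ng2_RFP, and Vtn (0.998 ± 0.18) and lower Selp (-1.37 ± 0.45) and Sele (-0.82 ± 0.25). Without Lepr replicate 3 the split was 10 higher and 8 lower for Col2.3_GFP and 11 higher and 6 lower for Ng2_RFP, with Itgb3 gained in each, while Itgal in Col2.3_GFP and Selp in Ng2_RFP (adjusted p = 0.0698) were lost. Some calls were also lost without other libraries: Itga3 in Col2.3_GFP without Col2.3_GFP replicate 1, 2, 3 or 4 or Lepr replicate 2, 4, 5 or 6 (adjusted p = 0.0711 to 0.115), Itgal in Col2.3_GFP without Col2.3_GFP replicate 1, 2, 3 or 4 or Lepr replicate 1, 2 or 3 (adjusted p = 0.0558 to 0.147), Selp in Ng2_RFP without Ng2_RFP replicate 1 or Lepr replicate 3 (adjusted p = 0.0556 to 0.0698) and Itga4 in Ng2_RFP without Ng2_RFP replicate 4 (adjusted p = 0.0505).

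The leukocyte integrin chains marked Mac and MK, and these groups were set against each other. Itgb2, the beta chain of leukocyte integrins, was at 169, 175, 177 and 177 FPKM in Mac and 56.0, 47.3, 161 and 139 FPKM in MK, against 0.498 to 9.24 FPKM over the libraries of the other 8 populations. Its partner Itgam, found on myeloid cells, was at 139, 136, 118 and 174 FPKM in Mac and 22.2, 16.4, 89.0 and 68.2 FPKM in MK. Itgal, the partner on lymphocytes and other leukocytes, was at 39.8, 41.2, 36.3 and 42.7 FPKM and 18.6, 19.0, 33.5 and 35.9 FPKM. Itgb7, which pairs with the Itga4 and Itgae chains, was at 26.6 to 35.8 FPKM in Mac and 11.6 to 29.5 FPKM in MK, and Itga4 itself at 17.0, 13.6, 15.3 and 21.7 FPKM and 6.26, 9.03, 11.9 and 10.5 FPKM. Itgax, the partner on dendritic cells, was at 2.16, 1.79, 2.51 and 3.45 FPKM in MK and under 1 FPKM in every other niche library.

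In Mac 4 of 30 members were higher than in MK, against 8.75% of all tested genes, and 9 lower, against 23.2%. Itgam (1.83 ± 0.40), Fn1 (1.93 ± 0.33), Itgb2 (0.98 ± 0.33) and Itga4 (0.79 ± 0.20) were higher in Mac by limma. Vcam1 (-3.20 ± 0.22), Itgb3 (-3.05 ± 0.65), Selp (-2.79 ± 0.50), Itga6 (-2.46 ± 0.51), Selplg (-1.62 ± 0.58), Itgb5 (-1.56 ± 0.33), Itgax (-1.05 ± 0.10), Itga9 (-0.99 ± 0.28) and Itgb1 (-0.97 ± 0.23) were lower. Itgax passed the filter only through MK, the group in which it was higher. Selplg, which encodes the mucin that P-selectin binds, was at 77.9, 62.2, 631 and 658 FPKM in MK and 65.1, 69.5, 86.5 and 56.3 FPKM in Mac. The MK libraries with the higher megakaryocyte markers, replicates 1 and 2, had more Itga6, Itgb3 and Selp and less Itgb2, Itgam and Selplg than replicates 3 and 4, and how far the mixture of cells sets these values was not tested. Itgb2 was not called without MK replicate 1 or 2 (adjusted p = 0.1 to 0.133), and Selplg not without Mac replicate 1, 2 or 4 or MK replicate 3 or 4 (adjusted p = 0.0503 to 0.168). The median fold change of all tested genes was -0.12, and with median-of-ratios scaling, which brings it to -0.01, the split was 6 higher and 8 lower, with Itga1 and Itgal gained and Selplg lost (adjusted p = 0.0799).

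Ncad_bone and Ncad_marrow cells differed most in the fibronectin gene. Fn1 was at 296, 389, 308 and 381 FPKM in Ncad_bone and 3.99, 7.81, 5.32 and 4.36 FPKM in Ncad_marrow, a log2 fold change of 5.78 ± 0.33 (limma adjusted p = 3.22e-16) with no overlap. In all, 14 of 30 members were higher in bone, against 14.7% of all tested genes, and 1 lower, against 9.95%, with a median fold change of 0.63 over the 30 tested members and 0 over all tested genes. The higher members included both chains of the classical fibronectin receptor, Itga5 (0.82 ± 0.25) and Itgb1 (0.65 ± 0.23), and Vtn (0.69 ± 0.19) with Itgb5 (1.11 ± 0.33), a beta chain of vitronectin receptors. They also included Itga9 (1.70 ± 0.28), Itga7 (1.55 ± 0.26), Itga10 (1.18 ± 0.16), Itga11 (0.81 ± 0.19), Itga4 (0.70 ± 0.20), Itgb2 (1.18 ± 0.33), Itgb8 (0.48 ± 0.10), Cd44 (1.34 ± 0.22) and Icam1 (0.81 ± 0.25). Itgb8 was under 1 FPKM in each of these libraries, 0.249 to 0.607 FPKM in bone and 0 to 0.03 FPKM in marrow.

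Cd44 was at 9.70, 10.7, 9.31 and 11.8 FPKM in Ncad_bone and 2.32, 5.37, 3.59 and 3.12 FPKM in Ncad_marrow, and Itga9 at 30.2, 26.1, 13.4 and 9.38 and 5.42, 2.15, 5.98 and 7.11 FPKM, both without overlap. Itgb5 was at 99.5, 119, 66.3 and 60.9 FPKM in bone and 56.7, 21.7, 36.6 and 46.2 FPKM in marrow, again without overlap. The 1 lower member was Itgav (-0.65 ± 0.22), at 39.0, 52.3, 38.4 and 44.5 FPKM in bone and 72.0, 89.8, 70.7 and 47.3 FPKM in marrow, with overlap. Vcam1 was not called (0.35 ± 0.22, adjusted p = 0.266). Pan-leukocyte markers summed to 75.7 to 246 FPKM in Ncad_bone and 37.3 to 272 FPKM in Ncad_marrow, and their part in the values of Itgb2 and Itga4 was not tested. Without Ncad_marrow replicate 2, the library with more leukocyte marker, 13 members were higher and 0 lower: Itgam, Itgb7 and Selplg were gained and Icam1, Itga5, Itgav, Itgb1 and Itgb5 lost.

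The weaker of these calls were lost when 1 library was left out: Itgb1 was lost without Ncad_bone replicate 2 or 4 or Ncad_marrow replicate 1, 2 or 3 (adjusted p = 0.0554 to 0.107), Itgav without Ncad_bone replicate 1 or 3 or Ncad_marrow replicate 1, 2 or 3 (adjusted p = 0.0613 to 0.124), Itga5 without Ncad_bone replicate 1 or 2 or Ncad_marrow replicate 2 (adjusted p = 0.0528 to 0.0862), Icam1 without Ncad_bone replicate 1 or 2 or Ncad_marrow replicate 2 or 3 (adjusted p = 0.0555 to 0.094), Itgb5 without Ncad_bone replicate 2 or Ncad_marrow replicate 2 (adjusted p = 0.0598 to 0.0796), Itga4 without Ncad_bone replicate 2 (adjusted p = 0.0702) and Vtn without Ncad_bone replicate 3 (adjusted p = 0.0576). With only Ncad_bone and Ncad_marrow in the fit, 6 of 30 members were called higher and 0 lower, and 3438 of all 18972 genes were called.

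Ncad_marrow was also compared with Lepr, and 4 of 30 members were higher, against 6.68% of all tested genes, and 6 lower, against 5.95%. Itgb5 was at 56.7, 21.7, 36.6 and 46.2 FPKM in Ncad_marrow and, for the lowest, median and highest library, 8.34, 11.05 and 13.9 FPKM in Lepr, with no overlap (1.73 ± 0.30, limma adjusted p = 9.45e-05). Vtn followed the same order, at 7.49, 6.35, 7.66 and 6.63 FPKM against 1.34, 1.80 and 2.71 FPKM (1.498 ± 0.18, adjusted p = 8.28e-08). Itga3 (0.73 ± 0.21) and Itga8 (0.65 ± 0.22, adjusted p = 0.0498) were also higher. The lower members were Selp (-1.64 ± 0.45), Itgb2 (-1.29 ± 0.30), Itga9 (-1.07 ± 0.26), Sele (-0.78 ± 0.25), Itga4 (-0.76 ± 0.18) and Cd44 (-0.75 ± 0.20). Pan-leukocyte markers were at 42.4, 272, 37.3 and 70.8 FPKM in Ncad_marrow and 151 to 201 FPKM in Lepr, and neutrophil markers at 335 to 7586 and 11365 to 19461 FPKM. Endothelial markers summed to 6.87 to 11.8 FPKM in Ncad_marrow and 11.5 to 118 FPKM in Lepr. Megakaryocyte and platelet markers summed to 20.4 to 41.6 and 26.4 to 6585 FPKM, the highest in Lepr replicate 3. The part of these 4 marker lists in the 6 lower values was not tested. Itga8 was lost without Ncad_marrow replicate 2, 3 or 4 or Lepr replicate 2, 4, 5 or 6 (adjusted p = 0.0746 to 0.138), Sele without Ncad_marrow replicate 1, 2, 3 or 4 or Lepr replicate 2, 5 or 6 (adjusted p = 0.0566 to 0.102), Itga3 without Ncad_marrow replicate 1 or 4 (adjusted p = 0.065 to 0.103) and Cd44 without Ncad_marrow replicate 1 (adjusted p = 0.083). Without Ncad_marrow replicate 2 the split was 3 higher and 7 lower, with Itgal and Itgam gained, and without Lepr replicate 3 it stayed at 4 and 6, with Selp at -1.23.

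After 5FU, bone and marrow N-cadherin reporter cells differed in Fn1 and Vcam1. Of 18 members that passed the filter, 6 were higher in 5Fu_Ncad_bone, against 12.5% of 13738 genes tested, and 2 lower, against 10.4%. Vcam1 was at 174, 169.9 and 174 FPKM in bone and 505, 582 and 537 FPKM in marrow (-1.64 ± 0.09, limma adjusted p = 0.000151), with no overlap. Fn1 was at 154, 118 and 139.5 FPKM in bone and 18.3, 15.2 and 19.0 FPKM in marrow (2.90 ± 0.15, adjusted p = 0.000115), again with no overlap. Itga10 (2.16 ± 0.17), Vtn (1.46 ± 0.25), Itga6 (1.41 ± 0.19), Itgb5 (1.37 ± 0.19) and Cd44 (0.83 ± 0.17) were higher in bone, and the collagen receptor chain Itga1, at 8.37, 10.2 and 9.003 and 19.7, 21.9 and 21.5 FPKM, was lower (-1.11 ± 0.13). Itga10, at 5.82, 6.26 and 6.23 and 0.534, 0.840 and 0.412 FPKM, passed the filter only through bone. Vtn, at 5.45, 5.18 and 3.59 and 0.942, 1.78 and 0.639 FPKM, also needed the bone libraries to pass, since in marrow only replicate 2 reached 1 FPKM. The call of Cd44 was lost without 5Fu_Ncad_bone replicate 2 (adjusted p = 0.0558). The 14 members below the filter were at most 3.59 FPKM in any of these 6 libraries.

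The bone-minus-marrow difference itself was compared between 5FU and homeostasis in a fit over the 14 N-cadherin libraries. Of 24 tested members 1 had a higher difference after 5FU, against 8.23% of 15421 genes, and 5 a lower one, against 10.6%. The lower ones were Fn1 (-2.88 ± 0.27, limma adjusted p = 1.73e-05), Itga9 (-2.33 ± 0.61, adjusted p = 0.0188), Vcam1 (-1.99 ± 0.20, adjusted p = 2.91e-05), Itga1 (-1.22 ± 0.27, adjusted p = 0.00817) and Itgb1 (-0.84 ± 0.19, adjusted p = 0.00873), and the higher one was Itga6 (1.17 ± 0.38, adjusted p = 0.0475). Itgb1 was at 169.8, 175 and 186 FPKM in bone and 194, 214 and 202 FPKM in marrow after 5FU, against 215, 263, 224 and 243 and 131, 127, 157 and 196 FPKM in homeostasis, so the order of bone and marrow was opposite, although the difference after 5FU alone was not called (adjusted p = 0.171). Itga9 had 11.3, 16.8 and 5.52 FPKM in bone and 17.7, 16.6 and 15.2 FPKM in marrow after 5FU, with overlap. Itga6 was lost without Ncad_bone replicate 1, 3 or 4 or Ncad_marrow replicate 2, 3 or 4 or 5Fu_Ncad_bone replicate 1, 2 or 3 or 5Fu_Ncad_marrow replicate 1, 2 or 3 (adjusted p = 0.0508 to 0.11), and Itga9 without 5Fu_Ncad_bone replicate 3 (adjusted p = 0.0501). With median-of-ratios scaling 2 members were higher and 5 lower, with Itga10 gained, and without Ncad_marrow replicate 2 the split was 0 higher and 7 lower, with Selp and Selplg gained.

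The levels before and after 5FU come from tables that may have been normalized separately, so they were not tested against each other. Mean Vcam1 was 901 FPKM in Ncad_bone and 173 FPKM in 5Fu_Ncad_bone, and 719.7 and 541 FPKM in the marrow groups. Stromal markers summed to 3808 to 4028 FPKM in 5Fu_Ncad_bone and 11736 to 15026 FPKM in 5Fu_Ncad_marrow, against 18992 to 24534 and 23061 to 27349 FPKM in homeostasis. Osteoblast markers summed to 6372 to 8455 and 316 to 839 FPKM after 5FU, against 4277 to 6099.6 and 6271 to 7794 FPKM. Such sums follow their most abundant genes: in 5Fu_Ncad_bone the mean was 3501 FPKM for Cxcl12 of the stromal list and 3326 and 2267 FPKM for Ibsp and Bglap of the osteoblast list. A single marker can go against the sum, as Col1a1 of the osteoblast list was higher in Ncad_bone than in Ncad_marrow (3.63 ± 0.31), where the sum was lower. The part of these marker differences in the member values was not tested.

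**Figure D4:**
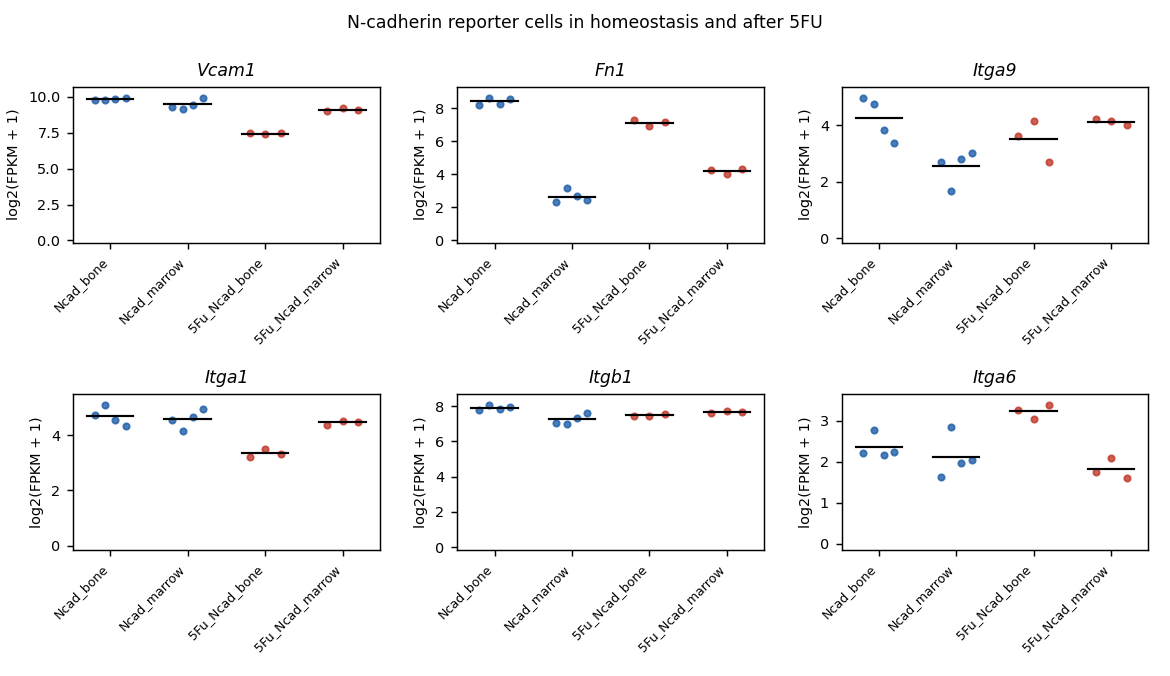
Levels of Vcam1, Fn1, Itga9, Itga1, Itgb1 and Itga6 as log2(FPKM + 1) in N-cadherin reporter cells of bone and marrow in homeostasis (blue) and after 5FU (red); each point is a library and each bar the mean of the log2 values. Vcam1 is at 173 FPKM on average in 5Fu_Ncad_bone against 541 FPKM in 5Fu_Ncad_marrow, and Fn1 is higher in bone in both conditions; the colours come from tables that may have been normalized separately.

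In HSPCs 19 of the 32 members passed the filter, and the alpha chain of leukocyte integrin encoded by Itgal separated the populations. Itgal (ENSMUSG00000030830, chromosome 7, 127296260 to 127335138) was at 0.298, 0.966, 0.899 and 0.942 FPKM in Reserve, 1.42, 2.90 and 2.80 FPKM in Primed, 2.91, 5.09 and 2.93 FPKM in ST and 17.7, 19.9, 18.4 and 15.1 FPKM in MPP. Reserve did not overlap with any of the other groups, Primed and ST adjoined at 2.90 and 2.91 FPKM, and MPP lay above all of these. Against Reserve its log2 fold changes were 0.91 ± 0.21 in Primed (limma adjusted p = 0.0295), 1.38 ± 0.21 in ST (adjusted p = 0.000532) and 3.42 ± 0.20 in MPP (adjusted p = 1.03e-08). The 4 comparisons with Reserve share its libraries. The 13 members below the filter reached at most 1.69 FPKM in any HSPC library, and Itga7 was listed at 0 in all 17.

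Itgal was the 1 member called in Primed, where 1 of 19 was higher, against 1.61% of 16171 genes, and 0 lower, against 2.26%. At an unadjusted p under 0.05 limma had 3 members higher and 2 lower. Itgal was lost without Reserve replicate 1, 3 or 4 or Primed replicate 2 or 3 (adjusted p = 0.0539 to 0.156). With Reserve replicates 3 and 4 left out together, Itgal was lost by limma (adjusted p = 0.0773) and Itga9 was gained as higher in Primed. Without Primed replicate 1 the count was 2 higher and 2 lower. In ST 2 of 19 were higher, against 6.52%, and 0 lower, against 6.21%, or 3 and 1 at an unadjusted p under 0.05. The called members were Itgal and Cd44 (0.41 ± 0.11, adjusted p = 0.0251), at 31.0, 33.9 and 35.4 FPKM in ST and 25.4, 24.6, 26.3 and 23.6 FPKM in Reserve. Cd44 was lost in ST without Reserve replicate 4 or ST replicate 2 or 3 (adjusted p = 0.0689 to 0.103).

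In MPP 3 of 19 members were higher, against 12.7% of tested genes, and 7 lower, against 28.3%. Cd44 was at 47.4, 49.5, 46.1 and 43.9 FPKM, above every Reserve library (0.88 ± 0.10, adjusted p = 1.01e-05). Itga6, a marker chain of stem cells as well as a laminin receptor, was at 31.2, 28.9, 24.5 and 27.6 FPKM in MPP and 71.8, 59.0, 56.4 and 53.7 FPKM in Reserve, with no overlap (-1.07 ± 0.17, adjusted p = 0.000209). Its share of the summed alpha chain FPKM was 54.0% ± 5.46 (SD, n = 4) in Reserve and 30.7% ± 2.14 (SD, n = 4) in MPP. Itga5 (-1.12 ± 0.20), Itgb3 (-1.12 ± 0.21), Icam1 (-0.82 ± 0.18), Icam2 (-0.77 ± 0.13), Itgb2 (-0.63 ± 0.17) and Itgb1 (-0.48 ± 0.11) were also lower, and Itgam (0.64 ± 0.22) was higher. Itgam was lost without Reserve replicate 1, 3 or 4 or MPP replicate 1 or 4 (adjusted p = 0.0566 to 0.0894). The median over all tested genes was -0.20, and with median-of-ratios scaling, which brings it to -0.02, 4 members were higher and 5 lower: Itgb1 and Itgb2 were lost (adjusted p = 0.0607 and 0.113) and Selplg gained. Itgb2, the beta chain of Itgal, was at 6.96, 8.76, 4.74 and 8 FPKM in MPP and 12.9, 13.3, 9.90 and 9.46 FPKM in Reserve.

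**Figure D5:**
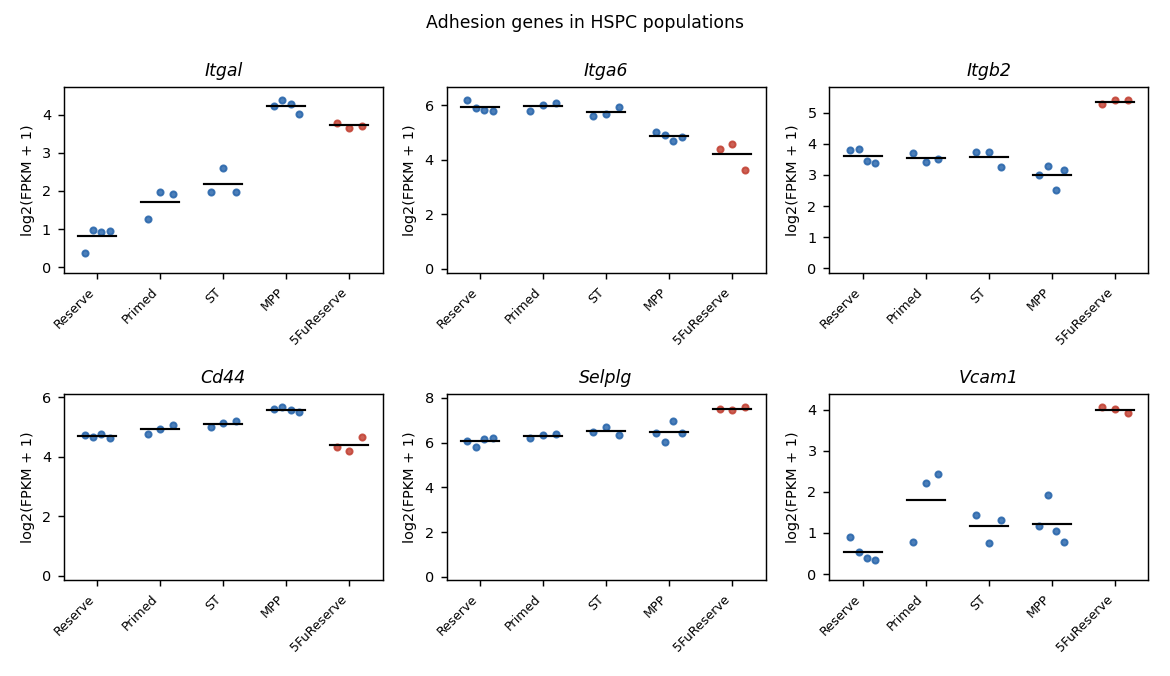
Levels of Itgal, Itga6, Itgb2, Cd44, Selplg and Vcam1 as log2(FPKM + 1) in the 5 HSPC groups (5FuReserve in red); each point is a library and each bar the mean of the log2 values. Mean Itgal rises from Reserve to MPP, and 5FuReserve libraries lie above Reserve for Itgal, Itgb2, Selplg and Vcam1 and below it for Itga6.

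In 5FuReserve 6 of 19 members were higher than in Reserve, against 25.5% of tested genes, and 6 lower, against 22.8%. Vcam1 was at 15.7, 15.2 and 14.2 FPKM after 5FU and 0.853, 0.450, 0.303 and 0.265 FPKM in Reserve (3.46 ± 0.35, limma adjusted p = 1.67e-06). Itgal was at 12.9, 11.6 and 12.0 FPKM (2.91 ± 0.21) and Itgb2 at 37.6, 41.3 and 41.3 FPKM against 12.9, 13.3, 9.90 and 9.46 FPKM (1.74 ± 0.19). Selplg was at 179.9, 175 and 189.9 FPKM against 66.8, 54.8, 71.7 and 73.8 FPKM (1.44 ± 0.17), Itgb7 at 24.9, 21.5 and 20.7 FPKM against 9.10, 6.06, 7.54 and 8.35 FPKM (1.42 ± 0.15) and Icam2 at 117, 120.0 and 117 FPKM against 56.7, 65.3, 70.5 and 75.1 FPKM (0.82 ± 0.14). None of these 6 overlapped between the groups, and how many of all tested genes were also without overlap was not counted.

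The same libraries carried transcripts of mature blood cells. B cell markers summed to 79664 to 83174 FPKM in 5FuReserve against 50.3, 75.8, 3037 and 3136 FPKM in Reserve replicates 1 to 4, with 6 of 6 markers at a mean of at least 1 FPKM against 3. T and NK cell markers summed to 455 to 561 FPKM against 49.5 to 88.4 FPKM, with Cd3e, Cd3g and Cd2 at 0 in each Reserve library. Pan-leukocyte markers were at 3024 to 3171 FPKM against 556 to 638 FPKM, and macrophage and monocyte markers at 918 to 1028 FPKM against 349 to 528 FPKM. Neutrophil markers were at 7378 to 9416 FPKM against 1528 to 4677 FPKM. Stem and progenitor markers were also higher, at 1136 to 1309 FPKM against 859 to 936 FPKM. Megakaryocyte and platelet markers were at 311 to 319 FPKM against 330 to 365 FPKM. The part of mature blood cells in the rise of Itgal, Itgb2, Itgb7, Selplg, Icam2 and Vcam1 was not tested. In MPP, where Itgal was also high, T and NK cell markers summed to 469 to 531 FPKM, of which Nkg7 was the 1 marker with a mean of at least 1 FPKM. This sum was 395 to 471 FPKM in ST and 173 to 226 FPKM in Primed, with Itgal at 2.91 to 5.1 and 1.42 to 2.9 FPKM. B cell markers in MPP summed to 1786 to 2533 FPKM and pan-leukocyte markers to 936 to 1133 FPKM. A link of any of these sums with Itgal was not tested.

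The members that fell in 5FuReserve were Itga6, at 19.99, 23.1 and 11.4 FPKM (-1.72 ± 0.19, adjusted p = 3.34e-06), Itgb5 (-1.16 ± 0.25), Itgb3 (-0.73 ± 0.23), Itga4 (-0.71 ± 0.16), Itgav (-0.64 ± 0.24) and Cd44 (-0.30 ± 0.11). Itga4, whose product with that of Itgb1 binds vascular cell adhesion molecule, was at 12.5, 10.4 and 8.85 FPKM against 17.3, 20.8, 16.5 and 16.6 FPKM, with no overlap. Itgb1 was not called, at 54.8, 49.2 and 63.2 FPKM against 40.7, 50.5, 51.6 and 48.4 FPKM (adjusted p = 0.139). Members called in none of the 4 HSPC comparisons were Itga9, Fn1 and Selp, at 0.607 to 2.82, 5.03 to 8.34 and 1.99 to 7.77 FPKM in Reserve and 0.685 to 0.888, 3.43 to 4.34 and 8.20 to 12.4 FPKM in 5FuReserve. Of these, Itga9 was at 2.16, 4.44 and 4.77 FPKM in Primed and 0.728, 0.607, 2.82 and 2.41 FPKM in Reserve replicates 1 to 4. Itgav was lost without Reserve replicate 1 or 2 or 5FuReserve replicate 1, 2 or 3 (adjusted p = 0.0668 to 0.106), Cd44 without Reserve replicate 1, 2 or 3 or 5FuReserve replicate 1 or 2 (adjusted p = 0.0548 to 0.185) and Itgb3 without 5FuReserve replicate 3 (adjusted p = 0.0527). With Reserve replicates 3 and 4 left out together, the libraries with the higher B cell markers, 7 members were higher and 5 lower.

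Over the 10 population means of the niche table, some chains that pair in known heterodimers had similar profiles. On the log2(FPKM + 1) scale Pearson's r was 0.990 for Itgal with Itgb2, 0.988 for Itgam with Itgb2, 0.826 for Itgax with Itgb2 and 0.797 for Itga4 with Itgb7. With Itgb1 it was 0.882 for Itga11, 0.877 for Itga9, 0.788 for Itga1, -0.508 for Itga6 and -0.836 for Itga4. It was 0.257 for Itgav with Itgb5, -0.240 for Itgav with Itgb3 and 0.311 for Itga6 with Itgb4. For ligands it was 0.884 for Sele with Selp, 0.892 for Sele with Icam2, 0.821 for Vcam1 with Icam1 and -0.685 for Vcam1 with Fn1. These are descriptions with no test over 10 populations, of which Mac and MK are blood cells, Pecam_GFP endothelial and 7 stromal, and the values for Sele rest on Pecam_GFP, the 1 population in which it was high.

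Other genes of adhesion were taken from lists of integrin activation (31 genes), matrix ligands (26), selectin ligand synthesis and counterreceptors (18) and other immunoglobulin-type receptors (18). In MPP the immunoglobulin list had 2 higher and 8 lower of 12 tested, against 12.7% and 28.3% of all genes, with a median log2 fold change of -1.13 against -0.20 for all genes. Esam (-3.22 ± 0.18), Jam3 (-3.32 ± 0.24), Jam2 (-2.85 ± 0.34) and F11r (-2.14 ± 0.15), junctional adhesion genes, were lower by limma. Fut7, the fucosyltransferase that completes selectin ligands, rose in Primed (0.92 ± 0.20), ST (1.32 ± 0.20) and MPP (1.96 ± 0.18). St3gal6, a sialyltransferase, fell in Primed (-1.37 ± 0.33) and ST (-1.21 ± 0.33), and Gcnt1, which builds the branched sugar core of selectin ligands, fell in MPP (-1.33 ± 0.19). Of the 15 selectin list genes tested, 1 was higher and 1 lower in Primed, against 1.61% and 2.26% of all genes, and 2 and 1 in ST, against 6.52% and 6.21%. In MPP 3 were higher and 7 lower, against 12.7% and 28.3%, with a median of -0.26, and in 5FuReserve 3 and 2, against 25.5% and 22.8%, with a median of -0.21 against -0.03 for all genes.

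In Pecam_GFP against Lepr, matrix ligands had 5 higher and 14 lower of 25 tested, against 19.7% and 22.0% of all genes, with a median of -0.61 against -0.03 for all genes, and Spp1 (-8.40 ± 0.21), osteopontin, and Tnc (-6.29 ± 0.25), tenascin, fell. Madcam1 (3.86 ± 0.09), the ligand of the Itga4 and Itgb7 pair, rose in Pecam_GFP. In Ncad_bone against Ncad_marrow the matrix list had 12 higher and 2 lower of 25, against 14.7% and 9.95% of all genes, with a median of 0.41 against 0, and Postn (4.42 ± 0.40), periostin, Col1a1 (3.63 ± 0.31), a collagen chain, and Lama2 (1.98 ± 0.21), a laminin chain, were higher in bone. Integrin activation genes had 10 higher and 1 lower of 30 there, against the same shares, with a median of 0.35, among them Lims2 (2.15 ± 0.31) and Zyx (1.57 ± 0.32), focal adhesion genes. The bone-minus-marrow difference was lower after 5FU for 13 of 24 matrix ligands, against 10.6% of all genes, and higher for 1, against 8.23%, Ibsp (4.58 ± 0.40), a bone sialoprotein, with a median of -0.90 against -0.02, and it was lower for 8 of 30 integrin activation genes, with a median of -0.66.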

How the data were processed

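RNA-seq libraries of sorted mouse cells were made with a SMARTer ultra low input kit and Nextera, per the labels' protocols. Tables of FPKM values per gene were deposited by the authors, and the submitters' processing notes name bcl2fastq 2.18, TopHat2 2.0.13, Cufflinks 2.2.1 and the build mm10. Sheets of group means were not used. FPKM holds no depth, so no counting interval can be given, and a value of 0 is only listed at 0.

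Values were analysed as log2(FPKM + 1) with limma 3.58.1 in R 4.3.3 (trend, all groups of a table in 1 fit) and Python 3.11.15 with pandas 2.3.3. Fold changes on this scale understate the change of low genes. Genes with at least 1 FPKM in at least 3 libraries of the table were tested, p-values were adjusted by Benjamini-Hochberg over all of them, and a gene was called at an adjusted p under 0.05. The bone-minus-marrow difference after 5FU was tested against that in homeostasis as an interaction, within which a shift between tables cancels if it is the same for bone and marrow. Membership was decided by gene symbol, but the members and gene lists were chosen with earlier results of these data known. The rule for named genes was every called member and every member with a group mean of at least 5 FPKM, and of each other list genes from the 4 called ones with the smallest p. The procedure was also run on simulated data with planted differences and independent noise in each library. Such data hold no mixed cells and no libraries that share a source, so that run cannot vouch for the calls given here. Alternatives were another pseudocount, other filters, only the compared groups, median-of-ratios scaling, a replicate block, leaving out single libraries, and leaving out Reserve replicates 3 and 4 together.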

Additional observations from a re-analysis of the deposited data

Results flagged for a closer look

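In 163 groups of 4 to 6 libraries in which a member had a mean of at least 5 FPKM, 1 library lay far from the others in 7, and chance gives about 1 in 20, or 8.15. Itgb3 was at 35.6 FPKM in Lepr replicate 3 against a median of 0.427 FPKM in the other libraries, and this library had megakaryocyte and platelet markers at 6585 FPKM. Selplg was at 19.2 FPKM in Ncad_marrow replicate 2 against 1.78 FPKM, and this library had pan-leukocyte markers at 272 FPKM. Selplg was also high in replicate 1 of Nestin_GFP, at 10.7 FPKM against 5.57 FPKM, and in replicate 1 of Pecam_GFP, at 9.745 FPKM against 5.92 FPKM. Itga5 was at 6.07 FPKM in Reserve replicate 1 against 4.89 FPKM, Fn1 at 15.4 FPKM in Cxcl12_RFP replicate 1 against 13.4 FPKM, and Vcam1 at 37.7 FPKM in Ng2_RFP replicate 3, below the others at 48.1 FPKM.

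For 6 members the log2 difference between bone and marrow N-cadherin reporter cells was not the same after 5FU as in homeostasis by limma's interaction term. The change in this difference was -2.88 for Fn1, -2.33 for Itga9, -1.99 for Vcam1, -1.22 for Itga1, -0.84 for Itgb1 and 1.17 for Itga6.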

How the results depend on the processing

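Of 155 calls of members, 81 held under all alternatives run, 38 were lost under at least 1 that tested them, and 36 were lost under none but were not tested with genes at a mean of at least 5 FPKM. Of the tested calls 0 changed direction. When the fit held the compared groups alone, the number of called members was 0 for Primed, 6 for Ncad_bone against Ncad_marrow, 6 for Ncad_marrow against Lepr and 8 for Mac against MK. Over all genes, such fits called 458 of 16171 for Primed, 3438 of 18972 for Ncad_bone against Ncad_marrow and 2715 of 18972 for Ncad_marrow against Lepr. With genes at a mean of at least 5 FPKM, which tests fewer members, the number of called members was 9 for Ncad_bone against Ncad_marrow, 6 for Ncad_marrow, 11 for Col2.3_GFP and 10 for Ng2_RFP against Lepr. Without Reserve replicates 3 and 4 it was 1 for ST. The cause was not tested for the other changes. With 1 library left out the number ranged from 0 to 4 for Primed, 1 to 2 for ST, 9 to 11 for MPP, 10 to 13 for 5FuReserve, 10 to 15 for Ncad_bone against Ncad_marrow, 7 to 11 for Ncad_marrow against Lepr, 16 to 18 for Col2.3_GFP, 16 to 17 for Ng2_RFP, 13 to 14 for Pecam_GFP, 12 to 13 for Mac against MK, 7 to 9 after 5FU, 30 to 30 across niche populations and 4 to 7 for the interaction.

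With the replicate block it was 1 for Primed, 2 for ST, 10 for MPP, 13 for 5FuReserve, 15 for Ncad_bone against Ncad_marrow, 7 for Ncad_marrow, 16 for Col2.3_GFP, 16 for Ng2_RFP and 13 for Pecam_GFP against Lepr, 13 for Mac against MK, 7 after 5FU, 30 across niche populations and 7 for the interaction. In no comparison did every same-numbered pair have correlated deviations over 0.1, and the highest value, in Pecam_GFP against Lepr, was 0.150. Each deviation is taken from a mean of few libraries, so these values cannot tell whether same-numbered libraries share a mouse or a batch. Depth is unknown for FPKM, so members at low values cannot be given a detection limit.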
